A study of Mus musculus with 13 samples.

Results

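The chemokine ligand genes of the mouse were followed here through the perivascular fat of mice that had received splenocytes from 4 kinds of donor. Members were the genes of the deposited count table whose mouse symbol starts with Ccl, Cxcl or Cx3cl followed by a digit, together with Xcl1. Ccl21a, Ccl19 and Cxcl13, which organise lymphoid tissue, were left out by the rule. The symbols gave 36 genes of 34013 in the table, of which 33 had 3 counts or more in some library and 3 (Ccl21b, Ccl27b and Cxcl3) were set aside. Just inside that limit stood Ccl19-ps1, with 5 counts in its richest library, and just outside it stood Cxcl3, with 2. Of the 33 genes kept, 26 passed the low-count filter of the test, and the other 7 (Ccl1, Ccl17, Ccl19-ps1, Ccl20, Cxcl5, Cxcl15 and Cxcl17) are given by their levels.

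Chemokines are small secreted proteins that guide leukocytes by binding G protein-coupled receptors on the cell surface. Some, such as Cxcl12 and Cxcl14, are made steadily by stroma, while others are switched on in inflamed tissue by cytokines acting through NF-kappaB, interferons or both. In fat, stromal cells, macrophages and other immune cells all make them, and the receptors are carried mainly by the leukocytes they attract.

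Perivascular adipose tissue, the fat coat around blood vessels, was profiled by bulk mRNA sequencing in recipients of splenocytes. The NTS-R group (n = 3) received cells of Nlrp3 knockout mice with type 2 diabetes, the TS-R group (n = 4) cells of diabetic mice, the NS-R group (n = 3) cells of Nlrp3 knockout mice and the WTS-R group (n = 3) cells of wild-type mice. The stated strain background was C57BL/6 in every group. The genotype label read Nlrp3 KO for NTS-R and NS-R and WT for TS-R and WTS-R, without saying whether it belongs to donor or recipient. How diabetes was induced, and whether recipients kept their own immune cells, is not given in the sources used here. Nor do the labels state age, sex, batch or whether libraries came from separate animals, so p-values measure the spread between these libraries, which may be in part technical.

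Totals ran from 14216706 to 37011122 counts per library, and on these raw totals 3 counts correspond to between 0.0811 and 0.211 CPM. On the scaled sizes used for the levels the limit shifts a little, and 3 counts were 0.242 CPM in NTS-R replicate 3. Levels are counts per 1000000 counts (CPM) on library sizes scaled by the trimmed mean of M-values (TMM), which sets the bulk of genes level between libraries, and errors are SD over libraries. Adipocyte markers (Adipoq, Plin1, Fabp4, Ucp1 and Cidea) were present in all 13 libraries, with summed levels of 13068 to 14821 CPM in NTS-R, 3558 to 12425 CPM in TS-R, 11432 to 15261 CPM in NS-R and 14827 to 17828 CPM in WTS-R. Nlrp3, an inflammasome sensor, was low but detected, at 0.403 to 1.21 CPM in NTS-R, 0.455 to 2.94 CPM in TS-R, 0.462 to 1.57 CPM in NS-R and 0.252 to 0.707 CPM in WTS-R. These ranges overlapped in every comparison, and the knockout label was not visible in them.

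Several libraries stood apart. TS-R replicate 3, and to a lesser degree TS-R replicates 2 and 4, carried transcripts of T cells, B cells and high endothelial venules. The 5 T cell markers summed to 11.2, 6.33 and 5.56 CPM in NTS-R libraries, 9.01, 154, 345 and 45.1 CPM in TS-R libraries, 3.48, 5.31 and 12.4 CPM in NS-R libraries and 3.78, 4.28 and 4.63 CPM in WTS-R libraries. The 3 venule markers summed to 1.31, 72.6, 985 and 12.4 CPM in TS-R libraries and to at most 3.27 CPM in any other. NS-R replicates 1 and 2 carried airway epithelial transcripts, with 4 markers summing to 2672, 5779 and 0.204 CPM in NS-R libraries and to at most 0.790 CPM outside that group. NTS-R replicate 1 and WTS-R replicate 1 were rich in interferon-stimulated transcripts, and TS-R replicate 1 had the most skeletal muscle transcripts, at 7001 CPM. Fitted values of Ccl5, Ccl22, Ccl8, Cxcl16, Cxcl1, Cxcl2, Cxcl9, Cxcl10 and Ccl12 that rest on one of these libraries are followed by the value without it.

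Promoter windows of 4 CXC genes are shown because the neutrophil and interferon results turn on these genes and because kappaB and interferon elements are textbook routes of their induction. Each window is from the RefSeq annotation of GRCm38.p6 and holds 300 bases around the gene's start, written along the gene's own strand. Capitals mark matches to a kappaB motif or to the core of an interferon-stimulated response element (GAAA, 2 bases of any kind, GAAA), on either strand. The windows lie at chr5:90890995-90891294 on the plus strand (Cxcl1), chr5:90903649-90903948 on the plus strand (Cxcl2), chr5:92328030-92328329 on the minus strand (Cxcl9) and chr5:92348840-92349139 on the minus strand (Cxcl10).
Cxcl1: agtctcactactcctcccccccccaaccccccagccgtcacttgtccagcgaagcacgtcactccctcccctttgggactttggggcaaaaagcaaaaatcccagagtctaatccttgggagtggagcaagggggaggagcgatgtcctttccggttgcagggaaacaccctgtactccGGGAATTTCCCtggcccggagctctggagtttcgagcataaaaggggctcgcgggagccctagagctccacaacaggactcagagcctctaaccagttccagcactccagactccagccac
Cxcl2: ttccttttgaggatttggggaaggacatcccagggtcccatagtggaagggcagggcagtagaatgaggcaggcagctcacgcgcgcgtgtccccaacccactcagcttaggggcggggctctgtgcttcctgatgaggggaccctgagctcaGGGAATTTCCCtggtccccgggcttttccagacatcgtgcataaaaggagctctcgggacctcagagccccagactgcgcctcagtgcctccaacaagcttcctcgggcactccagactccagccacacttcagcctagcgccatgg
Cxcl9: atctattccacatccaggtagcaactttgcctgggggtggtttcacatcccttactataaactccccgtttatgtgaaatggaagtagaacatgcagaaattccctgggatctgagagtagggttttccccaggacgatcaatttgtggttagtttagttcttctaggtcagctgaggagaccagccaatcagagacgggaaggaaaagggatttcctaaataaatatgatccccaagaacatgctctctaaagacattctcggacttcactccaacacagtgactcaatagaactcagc
Cxcl10: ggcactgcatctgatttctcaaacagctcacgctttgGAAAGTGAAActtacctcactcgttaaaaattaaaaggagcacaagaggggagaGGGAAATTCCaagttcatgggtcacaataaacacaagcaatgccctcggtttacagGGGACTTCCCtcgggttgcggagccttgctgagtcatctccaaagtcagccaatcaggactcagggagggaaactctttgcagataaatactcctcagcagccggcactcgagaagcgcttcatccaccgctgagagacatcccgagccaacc
Cxcl1 and Cxcl2 held the same 10 letters, GGGAATTTCC, beginning 71 and 97 bases before the start, each overlapped by a match on the other strand shifted by 1 base. Cxcl10 held kappaB matches that began 159 and 103 bases before its start and a response element core that began 213 bases before it. The Cxcl9 window held neither motif, nor the interferon-gamma activated site TTCNNNGAA, which says only that these letters are not in this window. A kappaB match occurred in 6 of the 21 kept members that have a window (28.6%: Ccl9, Ccl20, Ccl27a, Cxcl1, Cxcl2 and Cxcl10), beside 5.14% of 27025 genes. The response element core occurred in Cxcl10 and Cxcl14, 9.52% of those 21 members and 3.99% of all genes. TTCNNNGAA occurred in Ccl17 and Cxcl14, 9.52% of the members and 9.55% of all genes. These are letter matches, not shown binding sites.

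Corrected for gene length, the eotaxin Ccl11 stood at the top of the family, with a median of 25.3 CPM per kilobase over the 13 libraries. Ccl6, a macrophage-associated CC chemokine, followed at 17, the stromal ligand Cxcl12 at 14.2, the interferon-induced Cxcl9 at 13 and the monocyte attractant Ccl8 at 10.7 CPM per kilobase. The ranges of these 5 genes over libraries overlapped, so neighbours in this order were not set apart. The order also depends on the length used, the union of all annotated exons, which was 8176 bases for Cxcl12 and 1082 for Ccl11. Without correction for length Cxcl12 was the highest, with a mean of 133 CPM over the libraries beside 27.8 CPM for Ccl11. Ccl9, Cxcl14, Ccl5 and Cxcl16 had medians between 3.78 and 6.29 CPM per kilobase. At the other end, Ccl1, Ccl19-ps1, Cxcl15 and Ccl20 had a median of 0. The spread between libraries ran from narrow to wide: Ccl25 spanned a 1.89-fold range and Cxcl12 a 2.14-fold range, while Ccl8 spanned 28.1-fold, Ccl5 61.4-fold and Ccl22 143-fold. The 33 genes together reached between 269 CPM (WTS-R replicate 2) and 518 CPM (NTS-R replicate 1). TS-R replicate 3 held the highest level of 10 of the 33 kept genes, NS-R replicate 2 that of 8 and NTS-R replicate 1 that of 5.

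**Figure D1:**
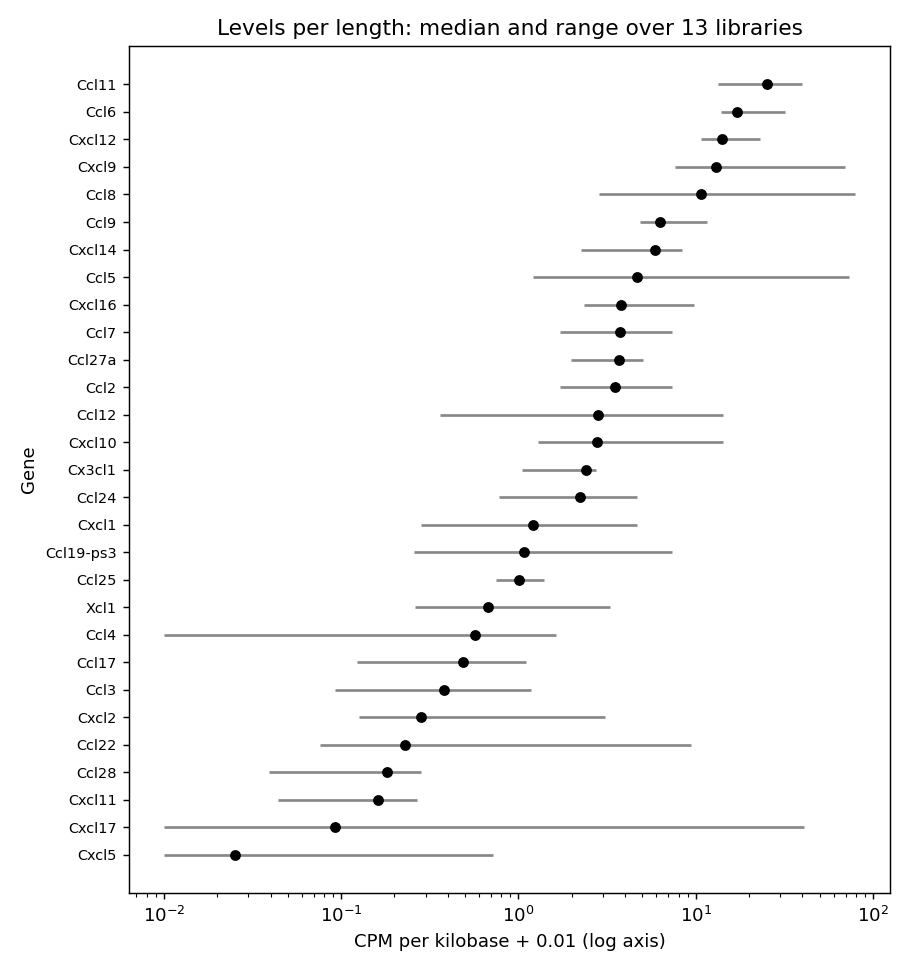
Level of the 29 kept genes with a median above 0, in CPM per kilobase of exon plus 0.01 on a log axis, as the median (point) and the range (line) over the 13 libraries. Ccl11 and Ccl6 have the highest medians, at 25.3 and 17, and Cxcl17, Ccl22 and Ccl5 have wide ranges.

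**Figure D2:**
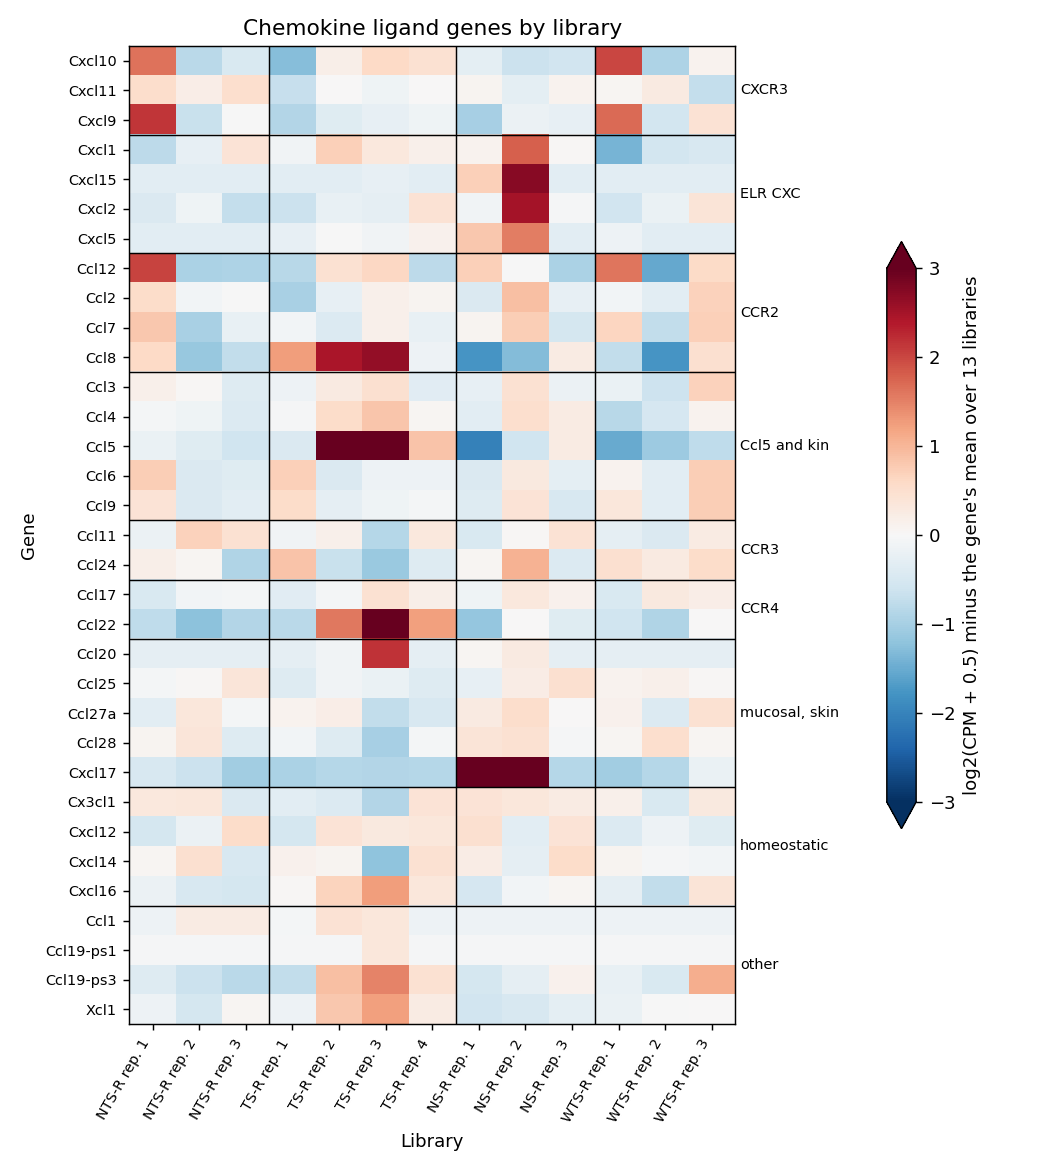
Level of each kept gene (down the page, by role) in each library (across, NTS-R, TS-R, NS-R, WTS-R), as log2(CPM + 0.5) minus the gene's own mean over the 13 libraries. High values gather in different libraries for different genes: TS-R replicate 3 for Ccl5, Ccl22 and Ccl20, NS-R replicates 1 and 2 for Cxcl15 and Cxcl17, and NTS-R replicate 1 and WTS-R replicate 1 for Cxcl9 and Cxcl10.

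Recipients of diabetic cells were set against recipients of wild-type cells, and recipients of Nlrp3 knockout diabetic cells against recipients of diabetic cells. The 4 TS-R libraries enter both, which makes the values dependent on each other, and they are given side by side. Ccl5, Ccl22, Ccl8 and Cxcl16 were among the 6 members with the smallest p-values in both comparisons, and for each the fitted NTS-R level was below the TS-R level and the TS-R level above the WTS-R level. No member passed an adjusted p of 0.05 in edgeR's quasi-likelihood test with Benjamini-Hochberg adjustment, and nor did any of the 17270 genes tested (0%). At an unadjusted p under 0.05, 7 of the 26 tested members (26.9%) lay higher in TS-R than in WTS-R, beside 15.2% of all genes, and 0 lay lower, beside 7.07%. These 7 include Ccl4 and Xcl1, which failed the low-count filter without TS-R replicate 2 or 3. The share thus rests in part on members let in by the group where they are high. DESeq2 called 3 higher (Ccl5, Ccl8 and Ccl22), beside 8.11% of the genes it tested, and 0 lower, beside 1.53%. Limma's voomWithQualityWeights called 8 higher, with Ccl4 and Xcl1 again among them, beside 13.5%, and 1 lower (Ccl24), beside 8.59%. Groups did not overlap for 2 members that were higher (Ccl5 and Cxcl1), 7.69% beside 8.96% of all genes, and for 2 that were lower (Ccl25 and Ccl28), 7.69% beside 8.15%. The median log2 fold change of the 26 was -0.15, beside 0.03 over all genes, with 11 values positive and 15 negative.

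In NTS-R against TS-R, edgeR likewise called 0 of 26 members and 0 of 17270 genes (0%). At an unadjusted p under 0.05, 6 of the 26 lay lower (Ccl5, Ccl8, Ccl19-ps3, Ccl22, Cxcl16 and Xcl1), 23.1% beside 14.1% of all genes, and 1 (Cxcl9) lay higher, 3.85% beside 5.59%. DESeq2 called 4 lower (Ccl5, Ccl8, Ccl22 and Cxcl16), beside 6.61%, and 0 higher, beside 0.936%. VoomWithQualityWeights also called 4 lower (Ccl5, Ccl22, Cxcl16 and Xcl1), beside 7.28%, and 0 higher, beside 2.2%. Xcl1 passed the low-count filter only through TS-R libraries, so the counts that include it rest in part on that group. Groups did not overlap for Ccl4 and Cxcl16, which were lower, 7.69% beside 6.83% of all genes, and for Ccl25 and Cxcl11, which were higher, 7.69% beside 5.7%. The median of the 26 was -0.01, beside -0.03 over all genes.

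**Figure D3:**
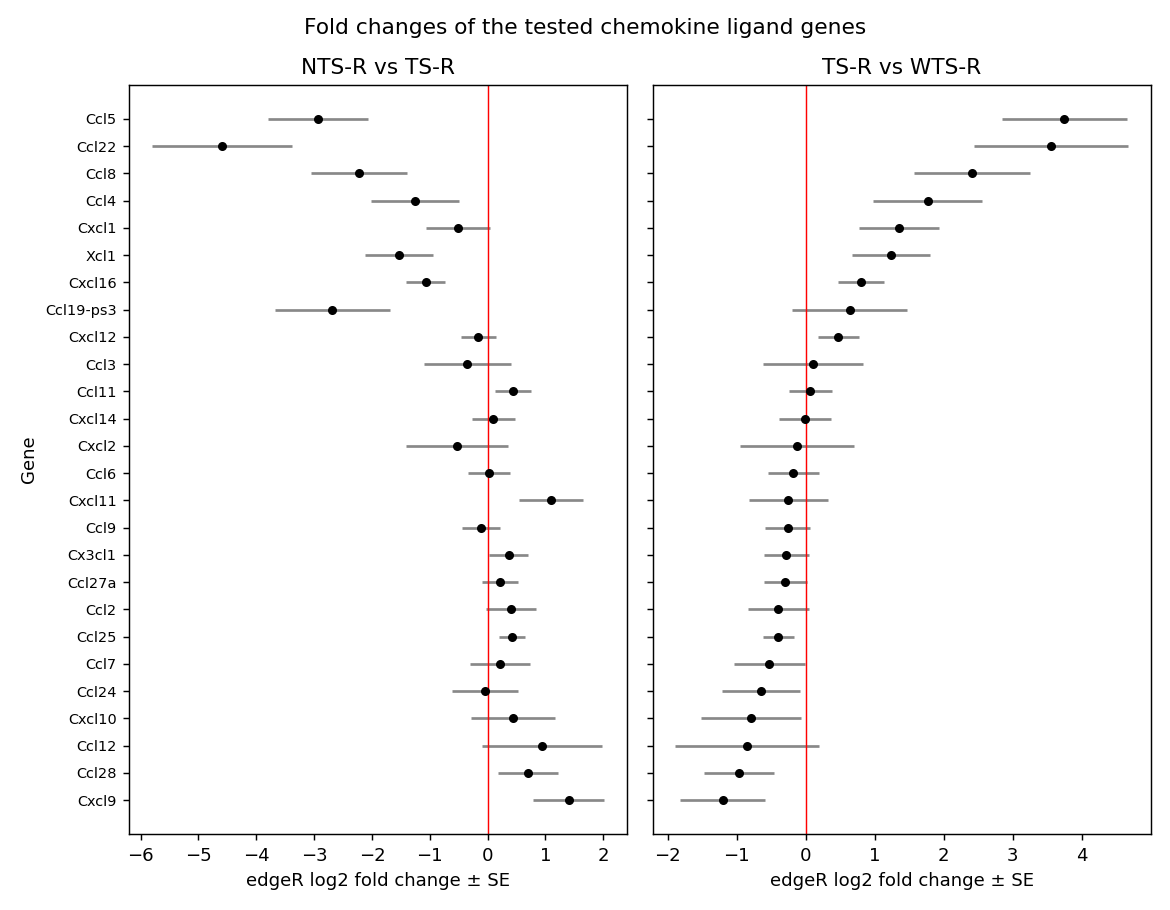
Fitted log2 fold change of each tested member with its standard error, NTS-R against TS-R on the left and TS-R against WTS-R on the right. Ccl22 and Ccl5 lie farthest from 0, at -4.60 and -2.94 on the left and 3.56 and 3.75 on the right, and both panels use the TS-R libraries.

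Of the inflammatory CC ligands Ccl3, Ccl4, Ccl5, Ccl6 and Ccl9, Ccl5 was the member with the smallest p in TS-R against WTS-R. Ccl5 (ENSMUSG00000035042), also known as RANTES and made mainly by activated T and NK cells, had 5.32, 4.73 and 3.95 CPM in NTS-R libraries, 4.46, 56.4, 70.7 and 11.7 CPM in TS-R libraries, 1.15, 3.93 and 7.5 CPM in NS-R libraries, and 1.86, 2.64 and 3.47 CPM in WTS-R libraries. TS-R replicates 2 and 3 stood far above the rest, and TS-R replicate 1 lay within the range of NTS-R and just above the highest WTS-R library. Ccl5 averaged 35.8 ± 32.7 CPM over the TS-R libraries (SD, n = 4) and 2.66 ± 0.807 CPM over the WTS-R libraries (SD, n = 3). Its log2 fold change was 3.75 (SE 0.90, unadjusted p = 0.00124, Benjamini-Hochberg adjusted p = 0.0624) for TS-R against WTS-R in edgeR, and the groups did not overlap. For NTS-R against TS-R it was -2.94 (SE 0.86, unadjusted p = 0.00493, Benjamini-Hochberg adjusted p = 0.110) in edgeR, with overlapping groups. Without TS-R replicate 2 these values were 3.46 and -2.63, and without TS-R replicate 3 they were 3.16 and -2.34. Without TS-R replicate 1 the edgeR adjusted p (Benjamini-Hochberg) passed 0.05 in both, at 0.00814 and 0.0202, and without TS-R replicate 4 in TS-R against WTS-R alone, at 0.0336. These omissions moved the whole table: without TS-R replicate 1 edgeR called 11.2% of all genes tested in TS-R against WTS-R, and the share for NTS-R against TS-R was 5.97%, and without TS-R replicate 4 it called 7.24% and 5.15%. In bulk tissue, fewer cells of a type and less RNA per cell cannot be told apart. T cell marker sums, given above, were highest in the same TS-R libraries, and their part in the Ccl5 result was not tested.

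Ccl3, Ccl4, Ccl6 and Ccl9 lie beside Ccl5 on chromosome 11. Ccl4, which encodes MIP-1beta, had 0.347, 0.305 and 0.161 CPM in NTS-R libraries, 0.370, 0.792, 1.07 and 0.427 CPM in TS-R libraries, 0.209, 0.750 and 0.545 CPM in NS-R libraries, and 0, 0.126 and 0.450 CPM in WTS-R libraries. It lay close to or under the 3-count floor in much of the table, and all 3 NTS-R libraries lay below all 4 TS-R libraries. Its edgeR log2 fold change was 1.77 (SE 0.79, unadjusted p = 0.0437, Benjamini-Hochberg adjusted p = 0.211) for TS-R against WTS-R, and 3.28 without WTS-R replicate 3. It no longer passed the low-count filter without TS-R replicate 2 or 3. Ccl3 ranged from 0.0629 to 0.900 CPM over all libraries, with overlapping groups in every comparison. Ccl6 had 57.0, 24.9 and 26.5 CPM in NTS-R libraries, 56.2, 24.9, 30.7 and 30.5 CPM in TS-R libraries, 25.1, 41.8 and 27.7 CPM in NS-R libraries, and 36.6, 27.3 and 56.9 CPM in WTS-R libraries. Ccl9, also linked to macrophages, had 28, 15.4 and 16.8 CPM in NTS-R libraries, 30.8, 17.2, 19.1 and 20.1 CPM in TS-R libraries, 15.8, 27.8 and 14.8 CPM in NS-R libraries, and 26.6, 16.7 and 35.1 CPM in WTS-R libraries. For both genes NTS-R replicate 1, TS-R replicate 1 and WTS-R replicate 3 were among the highest libraries, and groups overlapped in all 4 comparisons.

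Ccl22, the ligand of CCR4 made by dendritic cells and macrophages, lay at 1.04 CPM or less in every library outside TS-R. Ccl22 (ENSMUSG00000031779) had 0.405, 0.153 and 0.323 CPM in NTS-R libraries, 0.370, 4.08, 21.8 and 3.05 CPM in TS-R libraries, 0.183, 1.04 and 0.682 CPM in NS-R libraries, and 0.513, 0.314 and 1.03 CPM in WTS-R libraries. TS-R replicate 3 was the highest, TS-R replicates 2 and 4 followed, and TS-R replicate 1 lay within the range of the other groups. The edgeR log2 fold change was 3.56 (SE 1.11, unadjusted p = 0.00732, Benjamini-Hochberg adjusted p = 0.0919) for TS-R against WTS-R and -4.60 (SE 1.21, unadjusted p = 0.00237, Benjamini-Hochberg adjusted p = 0.105) for NTS-R against TS-R. Without TS-R replicate 3 these were 1.97 and -2.99. Without TS-R replicate 1 both passed 0.05 in edgeR with Benjamini-Hochberg adjustment, at 0.0170 and 0.0152, and without TS-R replicate 4 NTS-R against TS-R did, at 0.0479, beside the shares of all genes given for Ccl5. The other CCR4 ligand, Ccl17, was not tested and ranged from 0.0578 to 0.565 CPM, with its highest level in TS-R replicate 3 too. The 4 dendritic cell markers summed to 2.90 to 4.34 CPM in NTS-R, 2.39, 22.6, 51.7 and 17.9 CPM in TS-R libraries, 3.54 to 4.71 CPM in NS-R and 2.69 to 3.6 CPM in WTS-R, and their part in the Ccl22 result was not tested.

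Among the monocyte attractants of the CCR2 group, Ccl8 had the smallest p of the 4 in both comparisons with TS-R. Its levels were 9.54, 2.52 and 3.47 CPM in NTS-R libraries, 15.3, 35.6, 40.7 and 5.49 CPM in TS-R libraries, 1.47, 2.19 and 7.36 CPM in NS-R libraries, and 3.46, 1.45 and 8.81 CPM in WTS-R libraries. TS-R replicates 2 and 3 were the highest, and TS-R replicate 4 lay within the range of WTS-R. Its edgeR log2 fold change was 2.41 (SE 0.84, unadjusted p = 0.0139, Benjamini-Hochberg adjusted p = 0.121) for TS-R against WTS-R and -2.22 (SE 0.83, unadjusted p = 0.0201, Benjamini-Hochberg adjusted p = 0.174) for NTS-R against TS-R. Without TS-R replicate 2 these were 2.18 and -1.97, and without TS-R replicate 3 they were 2.03 and -1.82. The TS-R against WTS-R value was 3.30 without WTS-R replicate 3, and the NTS-R against TS-R value was -3.02 without NTS-R replicate 1. Ccl2, the main monocyte attractant MCP-1, had 6.42, 3.97 and 4.19 CPM in NTS-R libraries, 1.93, 3.47, 4.80 and 4.51 CPM in TS-R libraries, 2.99, 8.37 and 3.48 CPM in NS-R libraries, and 3.98, 3.33 and 7.20 CPM in WTS-R libraries. Its groups overlapped in all 4 comparisons, and its log2 fold change was -0.40 for TS-R against WTS-R. Ccl7 had 5.90, 1.37 and 2.66 CPM in NTS-R libraries, 2.98, 2.25, 3.59 and 2.62 CPM in TS-R libraries, 3.38, 5.60 and 2.04 CPM in NS-R libraries, and 5.26, 1.70 and 5.47 CPM in WTS-R libraries. Ccl12, a monocyte attractant found in mice, had 7.63, 0.534 and 0.564 CPM in NTS-R libraries, 0.625, 2.25, 2.57 and 0.671 CPM in TS-R libraries, 2.78, 1.5 and 0.545 CPM in NS-R libraries, and 5.58, 0.189 and 2.51 CPM in WTS-R libraries. NTS-R replicate 1 and WTS-R replicate 1, the libraries rich in interferon-stimulated transcripts, were the highest for Ccl12, while WTS-R replicate 2 was the lowest. The Ccl12 log2 fold change was 0.94 for NTS-R against TS-R and -1.47 without NTS-R replicate 1. For TS-R against WTS-R it was -0.85, and 0.18 without WTS-R replicate 1, so each sign changed when 1 library was left out. The 6 macrophage markers summed to 162 to 350.4 CPM in NTS-R, 317 to 429 CPM in TS-R, 185 to 255 CPM in NS-R and 166 to 485 CPM in WTS-R.

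**Figure D4:**
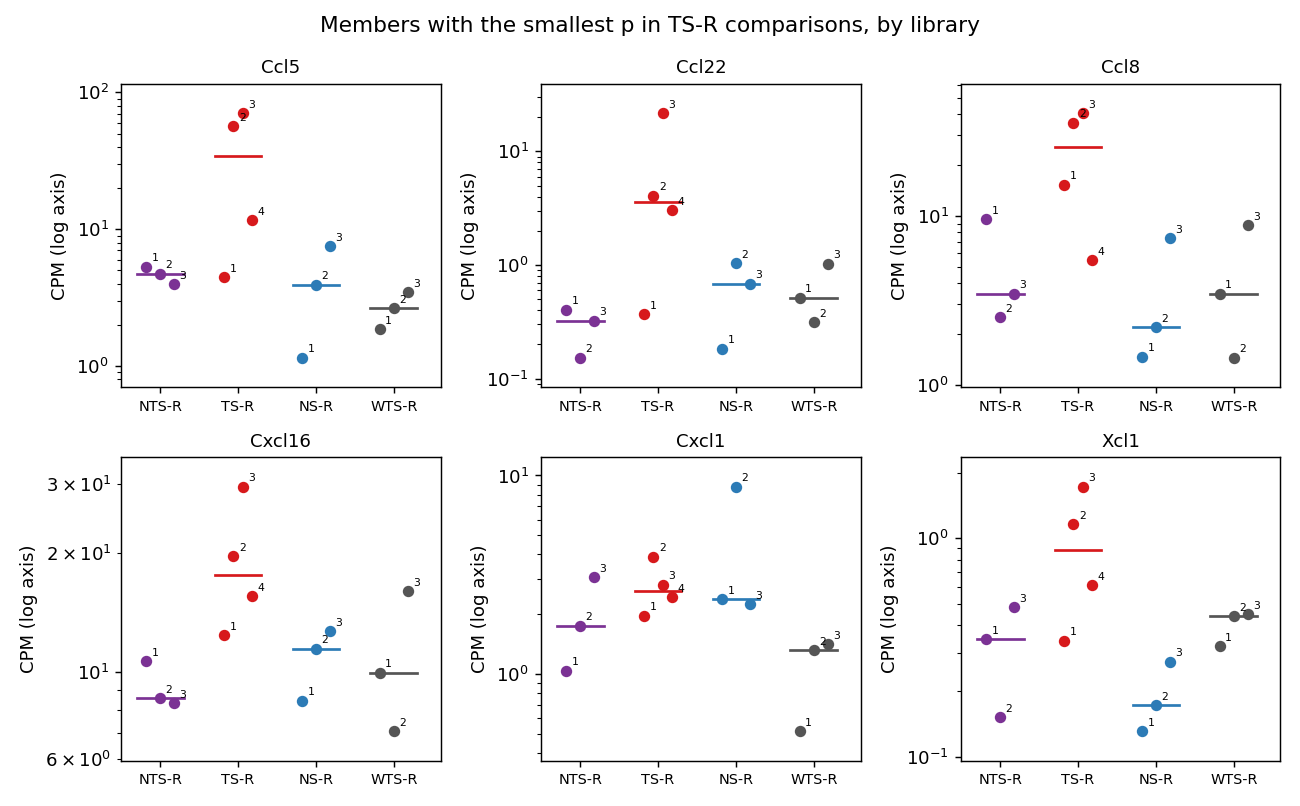
Level in CPM on a log axis of Ccl5, Ccl22, Ccl8, Cxcl16, Cxcl1 and Xcl1, with a numbered point per library and a line at the median of each group, NTS-R, TS-R, NS-R and WTS-R from left to right. TS-R replicates 2 and 3 carry most of the height of Ccl5 and Ccl8, and TS-R replicate 3 that of Ccl22. TS-R replicate 1 lies near the other groups for Ccl5 and Ccl22.

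Among the stromal and membrane-bound ligands, Cxcl16, which binds CXCR6 on T and NKT cells, had 10.6, 8.54 and 8.31 CPM in NTS-R libraries, 12.4, 19.6, 29.4 and 15.5 CPM in TS-R libraries, 8.43, 11.4 and 12.7 CPM in NS-R libraries, and 9.94, 7.04 and 16.0 CPM in WTS-R libraries. All 3 NTS-R libraries lay below all 4 TS-R libraries, while TS-R and WTS-R overlapped through WTS-R replicate 3. The edgeR log2 fold change was 0.81 (SE 0.33, unadjusted p = 0.0312, Benjamini-Hochberg adjusted p = 0.177) for TS-R against WTS-R, and 0.51 without TS-R replicate 3. For NTS-R against TS-R it was -1.07 (SE 0.34, unadjusted p = 0.00757, Benjamini-Hochberg adjusted p = 0.121), with an edgeR adjusted p (Benjamini-Hochberg) of 0.0454 without TS-R replicate 1. Cxcl16 shares exon bases with Zmynd15 on the other strand, and since the strand setting of the counting is not given in the sources used here, reads of these genes cannot be told apart. Cxcl12, the stromal ligand of CXCR4, had 87.8, 112 and 188 CPM in NTS-R libraries, 88.7, 169, 157 and 162 CPM in TS-R libraries, 178, 103 and 169 CPM in NS-R libraries, and 96.7, 116 and 99.1 CPM in WTS-R libraries. TS-R replicate 1, the library with most skeletal muscle transcripts, lay well below the other 3 TS-R libraries, and the groups overlapped in all comparisons. Cxcl14 had 10.7, 14.4 and 7.18 CPM in NTS-R libraries, 11.2, 10.7, 4.09 and 14.3 CPM in TS-R libraries, 11.9, 8.37 and 15.3 CPM in NS-R libraries, and 10.8, 9.94 and 9.58 CPM in WTS-R libraries. Cx3cl1, a membrane-tethered ligand of vessels and nerves, had 9.94, 10.1 and 5.73 CPM in NTS-R libraries, 6.25, 5.85, 4.09 and 10.7 CPM in TS-R libraries, 10.8, 10.2 and 9.47 CPM in NS-R libraries, and 8.92, 5.60 and 9.84 CPM in WTS-R libraries. Its lowest level was in TS-R replicate 3, where endothelial markers were also lowest, at 415 CPM, and groups overlapped for Cxcl14 and Cx3cl1 in all 4 comparisons.

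The CXCR3 ligands Cxcl9, Cxcl10 and Cxcl11, which draw activated T and NK cells and are induced by interferon, followed other libraries. Cxcl9 (ENSMUSG00000029417) had 208, 28.9 and 45.9 CPM in NTS-R libraries, 25.2, 35.9, 39.1 and 42.5 CPM in TS-R libraries, 22.9, 41.2 and 39.0 CPM in NS-R libraries, and 153, 31.3 and 62.6 CPM in WTS-R libraries. NTS-R replicate 1 and WTS-R replicate 1 stood far above the other 11 libraries, and groups overlapped in all 4 comparisons. Cxcl10 had 25.0, 4.19 and 5.48 CPM in NTS-R libraries, 2.90, 8.71, 11.9 and 10.9 CPM in TS-R libraries, 6.23, 4.73 and 5.04 CPM in NS-R libraries, and 32.3, 3.84 and 8.30 CPM in WTS-R libraries, with the same pair on top. Its log2 fold change was 0.44 for NTS-R against TS-R and -0.82 without NTS-R replicate 1, and for TS-R against WTS-R it was -0.79, and 0.49 without WTS-R replicate 1. Cxcl10 shares exon bases with Art3 on the other strand, which had 33192 counts in total beside 2486 for Cxcl10. Since the strand setting is not given, reads of these genes cannot be told apart there. Cxcl11 ranged from 0.129 to 0.983 CPM, and all 3 NTS-R libraries lay above all TS-R libraries and above all NS-R libraries. The 11 listed interferon-stimulated genes summed to 2302, 266 and 284 CPM in NTS-R libraries, 465, 414, 505 and 365 CPM in TS-R libraries, 580.1, 362 and 309 CPM in NS-R libraries and 2994, 248 and 681 CPM in WTS-R libraries. Both libraries that led for Cxcl9 led here too, and the part of this in the chemokine levels was not tested. Of those 11 genes, 10 had negative log2 fold changes in TS-R against WTS-R, with a median of -1.66. At an unadjusted p under 0.05, 2 lay lower (beside 7.07% of all genes), and 0 were called by DESeq2 (beside 1.53%) or edgeR after adjustment. In NTS-R against TS-R 10 were positive, with a median of 1.19, 0 at an unadjusted p under 0.05 (beside 5.59%) and 0 called by DESeq2 (beside 0.936%) or edgeR. All 11 were negative in NS-R against WTS-R, with a median of -1.55 and 0 at an unadjusted p under 0.05. For the interaction 10 were positive, with a median of 2.71, and 7 lay higher at an unadjusted p under 0.05 (beside 4.7%). DESeq2 called 1 of those, beside 0.521%. List values without NTS-R replicate 1 or WTS-R replicate 1, whose sums stood far above the others, were not taken. These medians and counts may therefore rest on those libraries. For Cxcl9 the edgeR log2 fold change was -1.26 (SE 0.67, unadjusted p = 0.0842, Benjamini-Hochberg adjusted p = 1.0) for NS-R against WTS-R and 1.46 (SE 0.67, unadjusted p = 0.0503, Benjamini-Hochberg adjusted p = 0.786) for NTS-R against NS-R. For NTS-R against TS-R it was 1.41 (SE 0.62, unadjusted p = 0.0407, Benjamini-Hochberg adjusted p = 0.233), and 0.07 (unadjusted p = 0.889 in edgeR) without NTS-R replicate 1. Without WTS-R replicate 1 the NS-R against WTS-R value was -0.47, and without NTS-R replicate 1 the NTS-R against NS-R value was 0.13.

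**Figure D5:**
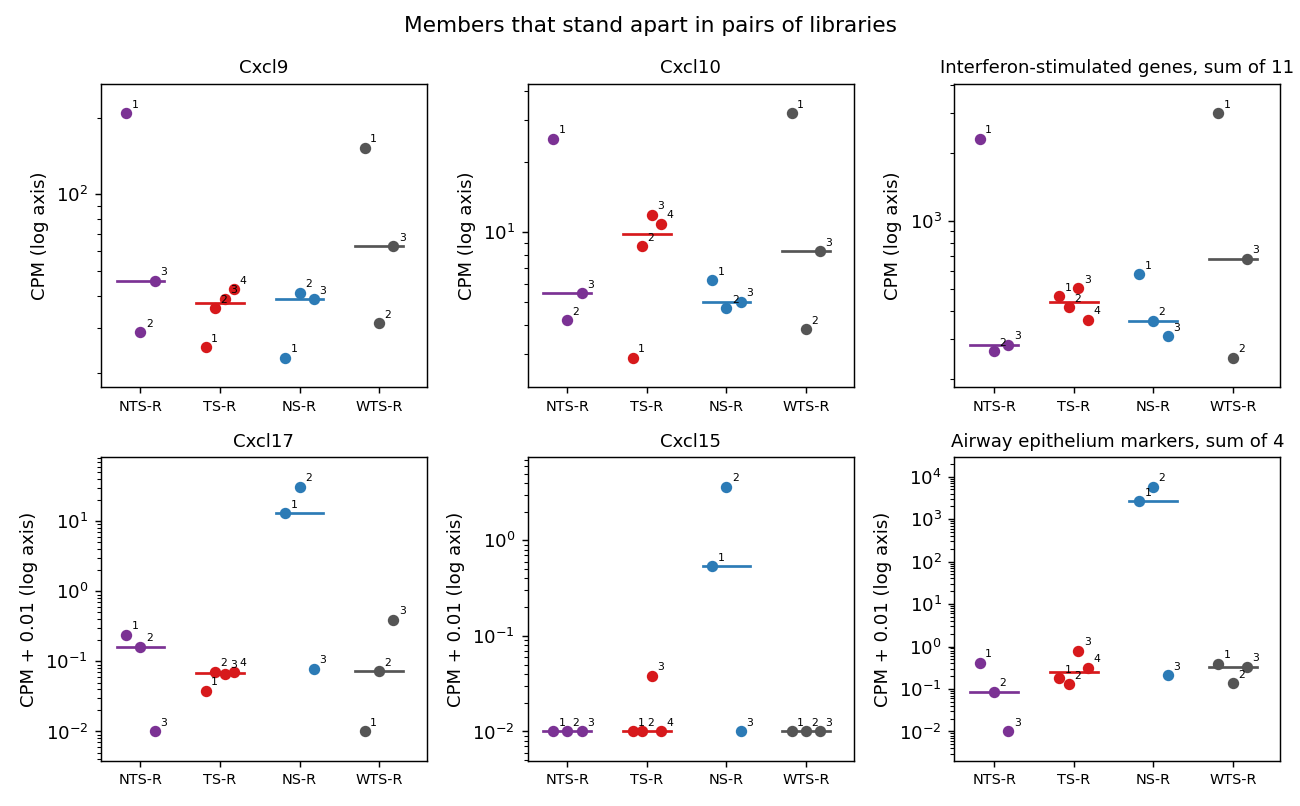
Level in CPM on a log axis of Cxcl9, Cxcl10, Cxcl17 and Cxcl15 and of the summed interferon-stimulated genes and airway markers (with 0.01 added where a library is at 0), with a numbered point per library and a line at each group median, NTS-R, TS-R, NS-R and WTS-R from left to right. Cxcl9 and Cxcl10 are highest in NTS-R replicate 1 and WTS-R replicate 1, and Cxcl15 and Cxcl17 in NS-R replicates 1 and 2.

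The ELR CXC ligands, which attract neutrophils through CXCR2, were highest in NS-R replicate 2 for Cxcl1, Cxcl2, Cxcl5 and Cxcl15. Cxcl1 (ENSMUSG00000029380) had 1.04, 1.75 and 3.06 CPM in NTS-R libraries, 1.96, 3.90, 2.82 and 2.44 CPM in TS-R libraries, 2.38, 8.78 and 2.25 CPM in NS-R libraries, and 0.513, 1.32 and 1.41 CPM in WTS-R libraries. All 3 NS-R libraries and all 4 TS-R libraries lay above all 3 WTS-R libraries, and NS-R replicate 2, the library with most airway transcripts, was the highest of all. Its edgeR log2 fold change was 1.35 (SE 0.58, unadjusted p = 0.0374, Benjamini-Hochberg adjusted p = 0.195) for TS-R against WTS-R and 2.03 (SE 0.61, unadjusted p = 0.00591, Benjamini-Hochberg adjusted p = 0.415) for NS-R against WTS-R. Without NS-R replicate 2 the NS-R value was 1.09. For NTS-R against NS-R it was -1.20 (SE 0.60, unadjusted p = 0.0664, Benjamini-Hochberg adjusted p = 0.840), and -0.25 without NS-R replicate 2. Neutrophil markers summed to 13.2, 10.6 and 9.03 CPM in NTS-R libraries, 61.0, 185, 220.3 and 45.5 CPM in TS-R libraries, 9.24, 14.2 and 14.4 CPM in NS-R libraries and 8.47, 12.3 and 7.53 CPM in WTS-R libraries, with Ly6g at 0 in NTS-R, and their part in the Cxcl1 result was not tested. Of 9 listed NF-kappaB response genes outside the family (Nfkbia, Tnfaip3, Il6, Tnf, Il1b, Icam1, Vcam1, Sele and Ptgs2), 8 had positive log2 fold changes in TS-R against WTS-R, with a median of 1.81, 6 higher at an unadjusted p under 0.05 (beside 15.2% of all genes), 5 called by DESeq2 (beside 8.11%) and 0 by edgeR. In NTS-R against TS-R all 9 were negative, with a median of -1.55, 6 lower at an unadjusted p under 0.05 (beside 14.1%), 3 called by DESeq2 (beside 6.61%) and 0 by edgeR. The comparisons with NS-R hold replicates 1 and 2 with airway transcripts, whose part in this list was not tested, and the summed levels of NS-R and WTS-R overlapped. In NS-R against WTS-R 8 were positive, with a median of 0.48, and 4 lay higher at an unadjusted p under 0.05 (beside 4.92%). DESeq2 called 1 of them, beside 1.43%. In NTS-R against NS-R 6 were negative and 3 positive, with a median of -1.36, and 4 lay lower (beside 5.11%). DESeq2 called 1 of the 9 lower there, beside 1.64%. Their levels summed to 150.0, 135 and 103 CPM in NTS-R libraries, 78.5, 197, 416 and 176 CPM in TS-R libraries, 124, 126 and 133 CPM in NS-R libraries and 129, 108 and 108 CPM in WTS-R libraries. TS-R replicate 1 lay below all 3 WTS-R libraries, and TS-R replicates 2, 3 and 4, the libraries with T cell, B cell and venule transcripts, lay above them, and the part of those transcripts was not tested.

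Cxcl2, whose promoter letters were shown beside those of Cxcl1, had 0.405, 0.610 and 0.242 CPM in NTS-R libraries, 0.284, 0.548, 0.508 and 1.16 CPM in TS-R libraries, 0.628, 6.35 and 0.682 CPM in NS-R libraries, and 0.321, 0.566 and 1.09 CPM in WTS-R libraries. NS-R replicate 2, which also led in airway transcripts, stood alone, and all 3 NTS-R libraries lay below all 3 NS-R libraries. The edgeR log2 fold change was -2.58 (SE 0.91, unadjusted p = 0.0149, Benjamini-Hochberg adjusted p = 0.531) for NTS-R against NS-R and 1.93 (SE 0.87, unadjusted p = 0.0452, Benjamini-Hochberg adjusted p = 0.905) for NS-R against WTS-R. Without NS-R replicate 2 these were -0.63 and -0.02. The part of the airway transcripts in the Cxcl1 and Cxcl2 levels was not tested. Cxcl5, a neutrophil attractant of epithelia, and Cxcl15, a chemokine of lung epithelium, had 23 and 20 counts in NS-R replicate 1 and 23 and 63 counts in NS-R replicate 2, with at most 3 counts in any other library.

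Of the mucosal and skin ligands, Cxcl17, a chemokine of airway and gut lining, had 0.231, 0.153 and 0 CPM in NTS-R libraries, 0.0284, 0.0609, 0.0565 and 0.0610 CPM in TS-R libraries, 13.1, 31.1 and 0.0682 CPM in NS-R libraries, and 0, 0.0629 and 0.386 CPM in WTS-R libraries. NS-R replicates 1 and 2 alone were above 1 CPM, and these libraries held the airway markers, whose part in the result was not tested. DESeq2 called Cxcl17 higher in NS-R than in WTS-R and lower in NTS-R than in NS-R, while it did not pass edgeR's filter. Ccl20, the CCR6 ligand, had 78 of its 88 counts in TS-R replicate 3, which was 2.20 CPM, and at most 0.231 CPM elsewhere. Ccl25, a gut-homing ligand, had 6.99, 7.47 and 9.52 CPM in NTS-R libraries, 5.46, 6.70, 6.24 and 5.49 CPM in TS-R libraries, 6.10, 8.60 and 10.3 CPM in NS-R libraries, and 7.89, 8.18 and 7.53 CPM in WTS-R libraries. All 4 TS-R libraries lay below all 3 NTS-R and all 3 WTS-R libraries, with log2 fold changes of 0.42 and -0.40. Ccl25 and Ccl27a share exon bases with genes on the other strand (Elavl1 and Il11ra1), which had 14148 and 16252 counts in total beside 1853 and 2183. Since the strand setting is not given, reads of these genes cannot be told apart there. Ccl27a, a skin-homing ligand, had 6.42, 10.5 and 7.82 CPM in NTS-R libraries, 8.78, 9.38, 4.66 and 5.67 CPM in TS-R libraries, 9.87, 12 and 8.25 CPM in NS-R libraries, and 8.92, 5.97 and 11.3 CPM in WTS-R libraries. Ccl28 ranged from 0.141 to 1.32 CPM, and all TS-R libraries lay below all WTS-R libraries.

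The eotaxins draw eosinophils through CCR3. Ccl11 had 23.4, 43.2 and 36.9 CPM in NTS-R libraries, 24.6, 29.4, 14.5 and 33.5 CPM in TS-R libraries, 19.3, 27.4 and 36.1 CPM in NS-R libraries, and 21.9, 19.5 and 31.5 CPM in WTS-R libraries. TS-R replicate 3 was the lowest library for Ccl11, at the same time as adipocyte and fibroblast markers were lowest there, at 3558 and 322 CPM summed, and the part of that in the level was not tested. Ccl24 had 3.12, 2.82 and 1.21 CPM in NTS-R libraries, 5.29, 1.52, 0.988 and 1.95 CPM in TS-R libraries, 2.85, 6.06 and 1.91 CPM in NS-R libraries, and 3.98, 3.40 and 4.18 CPM in WTS-R libraries. Groups overlapped for both genes in all 4 comparisons. Xcl1, a ligand of XCR1 on cross-presenting dendritic cells made by T and NK cells, had 0.347, 0.153 and 0.484 CPM in NTS-R libraries, 0.341, 1.16, 1.72 and 0.610 CPM in TS-R libraries, 0.131, 0.173 and 0.273 CPM in NS-R libraries, and 0.321, 0.440 and 0.450 CPM in WTS-R libraries. All 3 NS-R libraries lay below all 3 WTS-R libraries, at levels of a few counts, and the edgeR log2 fold change was -1.54 (SE 0.59, unadjusted p = 0.0223, Benjamini-Hochberg adjusted p = 0.179) for NTS-R against TS-R. Xcl1 and Cxcl11 share exon bases with Gm20743 and Gm2673 on the other strand, and Xcl1 did not pass the filter without TS-R replicate 2, 3 or 4. Ccl19-ps3, a copy that can share reads with Ccl19, had 0.289, 0.153 and 0.0806 CPM in NTS-R libraries, 0.114, 1.40, 2.37 and 0.914 CPM in TS-R libraries, 0.209, 0.346 and 0.613 CPM in NS-R libraries, and 0.385, 0.252 and 1.67 CPM in WTS-R libraries, and its values are uncertain for that reason. Its log2 fold change was -2.69 (SE 1.0, unadjusted p = 0.0189, Benjamini-Hochberg adjusted p = 0.168) for NTS-R against TS-R in edgeR, and without TS-R replicate 1 the adjusted p was 0.0423 and without TS-R replicate 3 the value was -2.02.

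The receptors of these ligands were measured in the same libraries. Of 18 receptor genes, 14 were tested, and 12 lay higher in TS-R than in WTS-R at an unadjusted p under 0.05, beside 15.2% of all genes, with all 14 log2 fold changes positive and a median of 2.80. DESeq2 called 10 of them, beside 8.11% of the genes it tested, and edgeR 0 after Benjamini-Hochberg adjustment. For NTS-R against TS-R, 13 of the 14 were negative with a median of -2.23, and 12 lay lower at an unadjusted p under 0.05, beside 14.1%. Cxcr4, the receptor of Cxcl12, had 8.50, 7.63 and 8.06 CPM in NTS-R libraries, 12.9, 30.8, 138 and 23.7 CPM in TS-R libraries, 2.83, 7.97 and 7.84 CPM in NS-R libraries, and 4.36, 4.09 and 4.70 CPM in WTS-R libraries. Cxcr6, the receptor of Cxcl16, had 1.5, 0.992 and 1.05 CPM in NTS-R libraries, 1.36, 5.60, 8.92 and 3.29 CPM in TS-R libraries, 0.602, 0.404 and 1.5 CPM in NS-R libraries, and 0.577, 0.440 and 0.772 CPM in WTS-R libraries. All 4 TS-R libraries lay above all 3 WTS-R libraries for both, with edgeR log2 fold changes of 3.55 (SE 0.74, unadjusted p = 0.000385, Benjamini-Hochberg adjusted p = 0.0624) and 3.0 (SE 0.65, unadjusted p = 0.000542, Benjamini-Hochberg adjusted p = 0.0624). Cxcr5, the receptor of Cxcl13 on B cells, had 3.01, 0.534 and 0.484 CPM in NTS-R libraries, 1.28, 18.3, 95.1 and 6.46 CPM in TS-R libraries, 0.916, 0.808 and 1.5 CPM in NS-R libraries, and 0.706, 0.629 and 0.193 CPM in WTS-R libraries. Ccr7, which binds Ccl19 and Ccl21, had 1.21, 0.305 and 1.37 CPM in NTS-R libraries, 0.654, 33.4, 54.8 and 5.67 CPM in TS-R libraries, 0.681, 1.73 and 1.09 CPM in NS-R libraries, and 0.770, 0.943 and 0.900 CPM in WTS-R libraries. Ccr6, the receptor of Ccl20, had no counts in WTS-R and 10.1, 55.9 and 2.93 CPM in TS-R replicates 2, 3 and 4. Of the atypical receptors, Ackr3, which takes up Cxcl12 and is named here after its values were seen, had 62.8, 60.1 and 94.4 CPM in NTS-R libraries, 28.8, 68.8, 25.6 and 85.2 CPM in TS-R libraries, 94.6, 108 and 137 CPM in NS-R libraries, and 98.9, 161 and 101 CPM in WTS-R libraries, and all 4 TS-R libraries lay below all 3 WTS-R libraries, with an edgeR log2 fold change of -1.21 (SE 0.39, unadjusted p = 0.00854, Benjamini-Hochberg adjusted p = 0.0982). The left-out ligands Ccl21a, Ccl19 and Cxcl13 summed to 29.7, 21.3 and 9.76 CPM in NTS-R libraries, 18.6, 307, 589 and 61.6 CPM in TS-R libraries, 19.0, 18.6 and 27.0 CPM in NS-R libraries and 17, 14.5 and 48.1 CPM in WTS-R libraries. The part of the B and T cell transcripts in the receptor levels was not tested.

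Setting NS-R against WTS-R asks about Nlrp3 loss in non-diabetic donors, and Cxcl1 and Cxcl2, both highest in NS-R replicate 2, had the smallest p-values among the members. EdgeR called 0 of 26 members and 0 of 17270 genes (0%). At an unadjusted p under 0.05, 2 members lay higher (7.69% beside 4.92% of all genes) and 0 lower, beside 0.388%. Groups did not overlap for Cxcl1, higher (3.85% beside 7.95%), and for Xcl1, lower (3.85% beside 6.4%). DESeq2 called Cxcl17 higher, beside 1.43%, and 0 lower, beside 0.00453%, and voomWithQualityWeights called 0, beside 0.0811% higher and 0% lower. Without NS-R replicate 3, edgeR tested 28 members and called Cxcl5 and Cxcl17 in both this comparison, beside 2.77% of all genes tested, and NTS-R against NS-R, beside 3.1%. That fit keeps only NS-R replicates 1 and 2, the libraries with airway transcripts. Cxcl5 and Cxcl17 passed its filter through those libraries, so the calls add nothing to the levels given above. For NTS-R against NS-R, which asks about donor diabetes where Nlrp3 is lost, edgeR called 0 of 26 members and 0% of all genes. Cxcl2 alone passed an unadjusted p of 0.05, lower (3.85% beside 5.11%), and 0 passed it higher, beside 1.25%. Groups did not overlap for Cxcl11, higher (3.85% beside 7.03%), and Cxcl2, lower (3.85% beside 8.2%). DESeq2 called Cxcl17 lower, beside 1.64%, and 0 higher, beside 0.0199%, and voomWithQualityWeights called 0, beside 0.0695% lower and 0% higher. The DESeq2 calls of Cxcl17 in these comparisons likewise rest on NS-R replicates 1 and 2 and add nothing to its levels. These comparisons share the NS-R libraries with each other, and the WTS-R and NTS-R libraries with the comparisons above.

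Whether the donor diabetes difference itself differed with donor Nlrp3 was tested as NTS-R minus NS-R, less TS-R minus WTS-R. Cxcl1 gave -2.55 (SE 0.83, unadjusted p = 0.00937, Benjamini-Hochberg adjusted p = 0.161), Ccl5 gave -3.57 (SE 1.20, unadjusted p = 0.0114, Benjamini-Hochberg adjusted p = 0.169) and Cxcl9 gave 2.66 (SE 0.91, unadjusted p = 0.0124, Benjamini-Hochberg adjusted p = 0.172) as log2 differences in edgeR. At an unadjusted p under 0.05, 4 members lay lower (15.4% beside 13.6% of all genes) and 1, Cxcl9, higher (3.85% beside 4.7%), and edgeR called 0 of 26 members and 0% of all genes. DESeq2 called Ccl5, Ccl22 and Cxcl1 lower, beside 5.77%, and Cxcl9 higher, beside 0.521%, and voomWithQualityWeights called Ccl4 and Cxcl1 lower, beside 7.24%, and 0 higher, beside 3.6%. Without NS-R replicate 2 the Cxcl1 value was -1.60. The Cxcl9 value was 1.34 when NTS-R replicate 1 was left out and 0.54 when WTS-R replicate 1 was left out as well. Without TS-R replicate 1 the adjusted p (Benjamini-Hochberg) of Ccl5 in edgeR was 0.0499, beside 3.03% of all genes called, and without NS-R replicate 3 edgeR called Cxcl5, beside 1.64%. The Cxcl5 call rests on NS-R replicates 1 and 2, the libraries with airway transcripts, through which Cxcl5 passed the filter. Without NS-R replicate 3 and TS-R replicate 3 together the Ccl5 value was -2.27.

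By place in the genome, 12 members lay on chromosome 11 and 9 on chromosome 5. On chromosome 11, Ccl12 peaked in NTS-R replicate 1 and the adjacent Ccl8 in TS-R replicate 3, and Ccl5 peaked in TS-R replicate 3 while Ccl9 peaked in WTS-R replicate 3 and Ccl6 in NTS-R replicate 1. On chromosome 5, Cxcl1 and Cxcl2 both peaked in NS-R replicate 2, Cxcl9 and Cxcl11 in NTS-R replicate 1 and Cxcl10 in WTS-R replicate 1. On chromosome 8, Ccl22 and Ccl17 peaked in TS-R replicate 3, while Cx3cl1, which lies between them, had its lowest level there, 4.09 CPM.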

How the data were processed

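The mRNA libraries were made from TRIzol-extracted total RNA with an ABclonal paired-end kit, per the labels' protocols. The authors deposited raw read counts per Ensembl gene. HISAT2 and featureCounts are named, per the submitters' processing notes; their versions, the build, the annotation and whether strand was used are not stated in the sources used here. Of 34013 gene identifiers, 33302 matched a mouse symbol, 711 did not, and 21 symbols stood on several identifiers.

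Counts of all 13 libraries were fitted together with edgeR 4.0.16 (TMM, filterByExpr, glmQLFit and glmQLFTest, R 4.3.3), with 1 mean per group and Benjamini-Hochberg adjustment over 17270 genes. SE is the size of the log2 fold change divided by the square root of F. The common biological coefficient of variation was 0.389. DESeq2 1.42.0, limma 3.58.1 (voomWithQualityWeights), RLE size factors, no filter, a replicate block, fits of the compared groups alone, and fits without libraries were alternatives. The pipeline was tested on simulated data. Lengths per kilobase are exon unions of GENCODE M21, and promoter windows are RefSeq's on GRCm38.p6. The text names members with a mean of 1 CPM or more, and, per comparison, the 6 (TS-R) or 3 (other) tested members with the smallest p. Members and lists were chosen with earlier results of these data known. Count differences between libraries of 1 group exceeded sampling noise (chi-square over degrees of freedom at least 32.4), so none was counted as a repeat. Ccl26 is not analysed here. Count floors cover counting error only.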

Additional observations from a re-analysis of the deposited data

Results flagged for a closer look

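In the TS-R group, the only group with 4 libraries, each member given by library was checked for a library far from the others, of which chance gives about 1 in 20. Cxcl12 in TS-R replicate 1, at 88.7 CPM, lay below the other 3 TS-R libraries, which held 169, 157 and 162 CPM. Cxcl17 in TS-R replicate 1, at 0.0284 CPM, lay below the other 3, at 0.0609, 0.0565 and 0.0610 CPM, and all 4 values rest on 2 counts or fewer, under the 3-count floor.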

How the results depend on the processing

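EdgeR called 0 members in each of the 5 comparisons, and that count changed with the processing. With DESeq2 it was 3 for TS-R against WTS-R, 4 for NTS-R against TS-R, 4 for the interaction and 1 for each comparison with NS-R. With voomWithQualityWeights it was 9 in TS-R against WTS-R, 4 in NTS-R against TS-R and 2 in the interaction. Without a low-count filter it was 1 in each pairwise comparison: Ccl5 in TS-R against WTS-R, beside 2.61% of all genes, Ccl22 in NTS-R against TS-R, beside 1.19%, and Cxcl17 in NS-R against WTS-R, beside 0.406%, and again for NTS-R against NS-R, beside 0.37%. Without NS-R replicate 3 and TS-R replicate 3 together it was 2 for each comparison with NS-R, beside 3.79% of all genes for NS-R against WTS-R, while NTS-R against NS-R had 4.26%. Fits without NS-R replicate 3 keep only the NS-R libraries with airway transcripts. The Cxcl17 calls of DESeq2 and of the fit without a filter rest on those libraries too. Leaving out 1 library in turn gave 0 to 2 members in TS-R against WTS-R, 0 to 4 in NTS-R against TS-R, 0 to 2 for each comparison with NS-R, and 0 to 1 for the interaction. The share of all genes called moved too. Its maximum for TS-R against WTS-R was 11.2%, and that for NTS-R against TS-R was 5.97%, both without TS-R replicate 1. For NS-R against WTS-R it was 2.77%, while NTS-R against NS-R had 3.1%, both without NS-R replicate 3. Of the values under an alternative for the members named by their small p, 417 kept direction and side of 0.05, 34 passed it, and 1 changed sign (Ccl12 and Cxcl10, outside that set, are given in the text): the log2 fold change of Cxcl2 in NS-R against WTS-R, which was -0.019 without NS-R replicate 2 and ran up to 2.48 when other libraries were left out. With voomWithQualityWeights the log2 fold change was 3.35 for Ccl4 and 2.11 for Cxcl1 in TS-R against WTS-R, -1.14 for Cxcl2 and 0.90 for Cxcl9 in NTS-R against NS-R, and 1.22 for Cxcl2 in NS-R against WTS-R. The cause of these changes was not tested. Without NS-R replicates 1 and 2 together, and without NTS-R replicate 1 and WTS-R replicate 1 together, both chosen after seeing the data, the count stayed 0 in each comparison.

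Deviations of same-numbered libraries of different groups were at most weakly correlated (18 correlations from -0.258 to 0.268). Of 12 libraries, 5 correlated best with their own number. Such values cannot decide whether equal numbers share a batch or a pairing, and the labels state neither. With the replicate block the count was 2 in TS-R against WTS-R (Ccl5 and Ccl8), beside 4.54% of all genes, and 0 in the other comparisons, beside 0.44% in NTS-R against TS-R, 0.11% in the interaction and 0% in the comparisons with NS-R.

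With 14216706 to 37011122 counts per library, genes with few or no counts in most libraries (Ccl1, Ccl17, Ccl19-ps1, Cxcl5, Cxcl15) give no usable fold change in the fit of all 13 libraries. Groups of 3 or 4 libraries leave wide errors.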
